A study of Mus musculus with 7 samples.

Results

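The BCL2 family decides whether a cell's mitochondria release the factors that start apoptosis. Its 10 listed members were Bcl2, Bcl2l1 (BCL-xL), Mcl1 and Bcl2l2 (BCL-w), which protect the cell, Bcl2l11 (BIM), Bmf, Bbc3 (PUMA) and Pmaip1 (NOXA), which belong to the pro-apoptotic BH3-only proteins, and Bax and Bak1, the pore-forming effectors. A member was included where a probe carried its symbol and no other, and the brightest such probe would have been kept. This gave 9 of the 10 members among 19752 genes tested, 4 anti-apoptotic and 5 pro-apoptotic, each with 1 probe. Bax was not analysed here.

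The arrays measured RNA of spleen cells enriched for natural killer (NK) cells, taken from male C57BL/6 mice aged 6 weeks. NK cells destroy virus-infected and tumour cells without prior priming. The cells were enriched with a kit that labels and removes other cell types, then cultured for 8 h with interleukin 2 at 250 U/ml (IL2, 4 arrays, replicates 1 to 4) or untreated without the cytokine (3 arrays, replicates 2 to 4). Both groups shared the strain, sex, age, enrichment and culture time. The titles of IL2 replicates 1 and 2 and untreated replicate 2 do not name the time, unlike the other 4 titles. Values are log2 intensities of 1 probe set per gene on Affymetrix Mouse Gene 1.0 ST arrays, and a gene was called higher or lower at a Benjamini-Hochberg adjusted p under 0.05 in limma's moderated fit over all genes. Whether replicates were separate mice or cultures is not in the labels, and the p-values therefore measure a spread that may be technical.

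BH3-only proteins sense stress or loss of growth factors, and they either activate the effectors BAX and BAK or occupy the groove of the protective members that hold these in check. Once BAX or BAK form pores in the outer mitochondrial membrane, cytochrome c escapes and activates caspases. NK cells depend on cytokines of the IL2 and IL15 type to stay alive, and in mice their survival in vivo requires Mcl1. Interleukin 2 signals through STAT5, a transcription factor, and through AKT, which keeps the FOXO factors out of the nucleus.

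The upstream sequences of the 3 members that were called are shown here because they differ in composition. From RefSeq's table of promoters for GRCm38.p6, 15 start sites of 8 of the 9 measured members were used. Pmaip1 was left out of this search. The 250 bases before each start were searched on both strands. The motifs were the STAT palindrome TTCNNNGAA, the FOXO motif TGTTTAC and the GC box GGGCGG, and matches are in capitals, 5′ to 3′ on the gene's strand. The lines below give Bcl2 at chr1:106714291-106714540 on the minus strand, the outermost of 3 listed starts of Bcl2l1 at chr2:152831729-152831978 on the minus strand, and the outermost of 3 listed starts of Bmf at chr2:118549687-118549936 on the minus strand.
Bcl2: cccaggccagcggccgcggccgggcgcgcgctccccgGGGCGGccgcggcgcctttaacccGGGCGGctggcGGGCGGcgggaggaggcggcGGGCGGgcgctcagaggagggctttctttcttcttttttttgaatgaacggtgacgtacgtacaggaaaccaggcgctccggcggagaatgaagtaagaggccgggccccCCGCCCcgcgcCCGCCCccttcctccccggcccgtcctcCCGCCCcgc
Bcl2l1: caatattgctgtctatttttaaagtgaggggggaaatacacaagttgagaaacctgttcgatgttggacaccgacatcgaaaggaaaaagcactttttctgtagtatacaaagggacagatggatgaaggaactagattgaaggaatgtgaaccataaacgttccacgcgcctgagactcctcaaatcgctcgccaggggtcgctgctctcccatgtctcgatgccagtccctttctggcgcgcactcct
Bmf: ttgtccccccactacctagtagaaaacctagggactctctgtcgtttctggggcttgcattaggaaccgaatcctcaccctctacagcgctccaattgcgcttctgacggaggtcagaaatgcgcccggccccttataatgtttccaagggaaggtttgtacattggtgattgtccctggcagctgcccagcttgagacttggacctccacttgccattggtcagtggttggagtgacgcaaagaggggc
The Bcl2 window was 74.8% G and C and held 7 GC boxes, while those of Bcl2l1 and Bmf were 47.6% and 54.0% G and C and held 0. Of the members not called, Bbc3 had 5, 1 and 7 GC boxes in its windows and Bcl2l11 had 3 and 2. Mcl1 and Bcl2l2 had 1 each, and Bak1 had 0. A GC box was present in 32.7% of all 32851 listed windows of this length. The STAT palindrome was in 0 of the 15 windows of members, against 7.02% of all windows.

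The FOXO motif stood once upstream of Bcl2l11 and once upstream of Bbc3, and it was present in 3.17% of all windows. These 2 sites are shown with 8 bases on either side, on the plus strand, at chr2:128125803-128125825 for Bcl2l11 and chr7:16310086-16310108 for Bbc3.
Bcl2l11: acactaggGTAAACAcgccgggg
Bbc3: ggcgggttTGTTTACaaacaatg
A match describes the letters in the window only.

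After 8 h with IL2, 2 of the 4 anti-apoptotic members, Bcl2 and Bcl2l1, were higher than in untreated cells and 0 were lower. Of the 5 pro-apoptotic members measured, 1, Bmf, was lower and 0 were higher. Over all genes, 2.98% were called, 2.08% higher and 0.901% lower. The median log2 fold change was 0.53 for the anti-apoptotic members and -0.04 for the pro-apoptotic members, beside -0.01 over all genes. IL2 and untreated arrays did not overlap for Bcl2 and Bcl2l1, which were higher, nor for Bmf and Pmaip1, which were at lower values with IL2. Over all genes 6.25% had every IL2 array above every untreated array and 3.38% every one below.

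**Figure D1:**
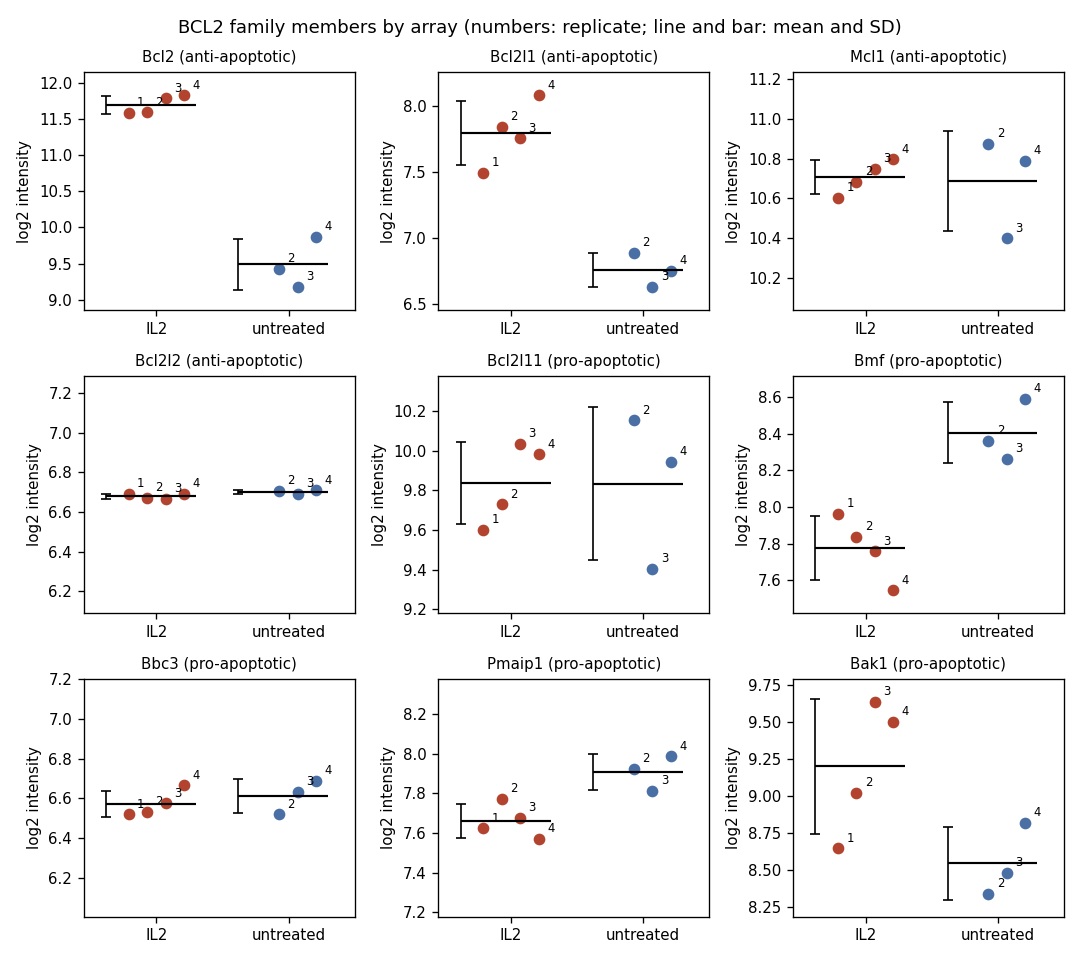
Log2 intensity of the 9 measured members on each array, IL2 left and untreated right, with the replicate number beside each point and the group mean and SD in black. The groups lie apart for Bcl2, Bcl2l1, Bmf and Pmaip1 and overlap for the other 5 members.

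Bcl2 encodes the founding member of the family, which holds BH3-only proteins at the outer mitochondrial membrane. Its log2 intensity was 11.58, 11.59, 11.78 and 11.82 in IL2 replicates 1 to 4, against 9.42, 9.17 and 9.87 in untreated replicates 2 to 4. Every IL2 array was more than 1 log2 unit above the highest untreated array. The means were 11.70 ± 0.13 with IL2 (SD, n = 4) and 9.49 ± 0.35 in untreated cells (SD, n = 3), so that Bcl2 rose by 2.21 log2 units (SE 0.16) with an adjusted p of 0.00105 in limma. This is 4.61-fold, with a 95% confidence interval of 3.54 to 6.00, and only 0.192% of all genes tested rose by as much or more. The rise was 2.28 over the 4 arrays whose titles name the time and 2.16 over the other 3. Both fits are small, and limma's adjusted p was 0.0751 and 0.356 in them. With 1 array left out in turn, the rise ranged from 2.05 to 2.40 and the call held each time.

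Bcl2l1 encodes BCL-xL, which restrains both effectors and is a known STAT5 target in several blood cell types. Its log2 intensity was 7.50, 7.84, 7.76 and 8.08 in IL2 replicates 1 to 4, against 6.89, 6.63 and 6.75 in untreated replicates 2 to 4. IL2 replicate 1 was the lowest of its group and still lay above every untreated array. Bcl2l1 averaged 7.79 ± 0.24 with IL2 (SD, n = 4) and 6.76 ± 0.13 in untreated cells (SD, n = 3), and it rose by 1.04 (SE 0.14, limma adjusted p = 0.0103), or 2.05-fold with a 95% confidence interval of 1.63 to 2.57. The rise was 1.23 within the arrays whose titles name the time and 0.78 within the others (limma adjusted p = 0.0762 and 0.468). The call was lost without IL2 replicate 2 (1.02, limma adjusted p = 0.0541), without untreated replicate 3 (0.97, limma adjusted p = 0.0501) and without untreated replicate 4 (1.03, limma adjusted p = 0.0634). Whether the rises of Bcl2 and Bcl2l1 differ was not tested.

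Mcl1 encodes a short-lived protective protein whose amount is set largely by how fast it is degraded. Log2 intensities were 10.60, 10.68, 10.75 and 10.80 in IL2 replicates 1 to 4, against 10.87, 10.40 and 10.79 in untreated replicates 2 to 4. The IL2 arrays all lay between the lowest and the highest untreated array. The log2 fold change was 0.02 (SE 0.12, limma adjusted p = 0.971), and its 95% confidence interval of -0.27 to 0.31 excludes a change of the size seen for Bcl2. The sign was positive within the arrays whose titles name the time (0.18) and negative within the others (-0.23), and it was negative after a further quantile normalization (-0.08).

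Bcl2l2 encodes BCL-w, a protective member best known from the testis and the nervous system. Its log2 intensity lay between 6.67 and 6.69 on the IL2 arrays and between 6.69 and 6.71 on the untreated arrays. These values hardly varied, and 3 arrays, IL2 replicates 1 and 4 and untreated replicate 3, held exactly the same value. The log2 fold change was -0.02 (SE 0.06, limma adjusted p = 0.933), with a 95% confidence interval of -0.17 to 0.13, and it turned to 0.03 after a further quantile normalization. The mean signal of Bcl2l2 was under the median over all genes, as was that of Bbc3.

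**Figure D2:**
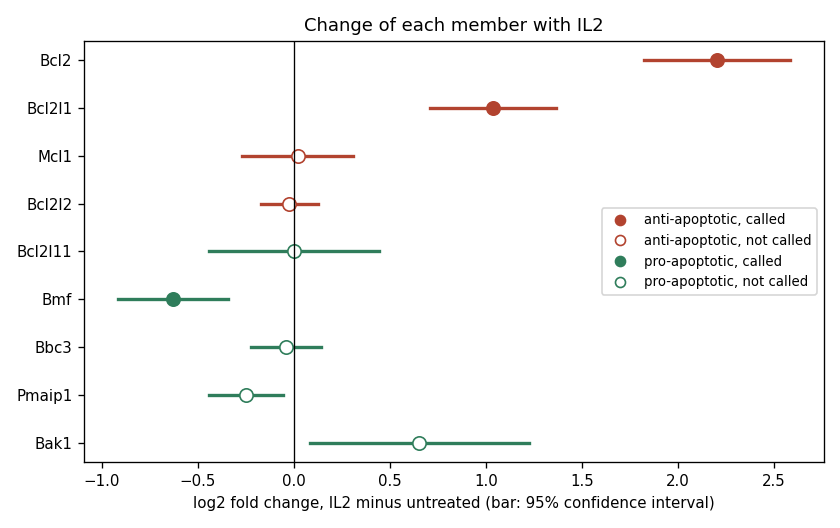
Log2 fold change of each member, IL2 minus untreated, with its 95% confidence interval from limma, filled where the adjusted p was under 0.05. Bcl2 at 2.21 and Bcl2l1 at 1.04 stand to the right of 0 and Bmf at -0.63 to the left, while Mcl1, Bcl2l2, Bcl2l11 and Bbc3 lie within 0.05 of 0.

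Among the BH3-only genes, Bmf was the member that fell. BMF is known as a BH3-only protein tied to the cytoskeleton and released when cells detach or lose growth factors. Bmf stood at log2 intensities of 7.96, 7.84, 7.76 and 7.54 in IL2 replicates 1 to 4, against 8.36, 8.26 and 8.59 in untreated replicates 2 to 4. All 4 IL2 arrays were below the lowest untreated array. Bmf averaged 7.78 ± 0.17 with IL2 (SD, n = 4) and 8.41 ± 0.17 in untreated cells (SD, n = 3), and it fell by 0.63 (SE 0.12, limma adjusted p = 0.0410), a change of -35.4% in signal. The difference was -0.78 within the arrays whose titles name the time and -0.46 within the others (limma adjusted p = 0.132 and 0.377). The call held without IL2 replicate 1 (-0.69, limma adjusted p = 0.0366) and was lost without any other single array, at limma adjusted p-values of 0.0794 (without untreated replicate 3), 0.0898 (untreated replicate 2), 0.0978 (IL2 replicate 4), 0.125 (IL2 replicate 2), 0.139 (untreated replicate 4) and 0.143 (IL2 replicate 3).

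Macrophage and monocyte markers moved too, and 6 of 9 were called lower with IL2, with a median log2 fold change of -1.10. Their summed intensity was 3777 to 5354 on the IL2 arrays and 11280 to 12456 on the untreated arrays. Of 10 NK cell markers 6 were called higher, and their sum was 25181 to 30652 on the IL2 arrays and 7266 to 11714 on the untreated arrays. B cell markers had sums of 12280 to 13079 on the IL2 arrays and 14524 to 16030 on the untreated arrays and 1 of 7, Fcer2a, called lower. Of 8 markers each, 1 was lower for neutrophils, 1 for dendritic cells and 0 for T cells, with 0 higher in these lists. The neutrophil sum was 1907 to 2761 on the IL2 arrays and 4632 to 6039 on the untreated arrays. The dendritic cell sum was 1404 to 1519 on the IL2 arrays and 1821 to 2250 on the untreated arrays. Its markers were mixed, as 4 of 8 had a positive log2 fold change and the median was -0.05, with Cd209a called at -1.71. The T cell sum was 1586 to 2950 on the IL2 arrays and 1753 to 2777 on the untreated arrays. The lowest single intensity was 208 among NK cell markers and 381 among B cell markers, above the array medians of 121 to 131, and 42.0, 62.9, 69.6 and 92.3 among macrophage and monocyte, dendritic cell, T cell and neutrophil markers, below them. RMA values do not reach 0, so these intensities alone do not show that a marker was absent. Fewer cells of a type and less RNA per cell cannot be told apart in such samples, and the part of the cell mixture in the changes of Bcl2, Bcl2l1 and Bmf was not tested.

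Bcl2l11 encodes BIM, the BH3-only protein that is chiefly known for removing lymphocytes deprived of cytokine. Its log2 intensity was 9.60, 9.73, 10.04 and 9.98 in IL2 replicates 1 to 4, against 10.15, 9.41 and 9.94 in untreated replicates 2 to 4. The untreated arrays held both the highest and the lowest value, and the means were 9.84 ± 0.21 with IL2 (SD, n = 4) and 9.83 ± 0.39 in untreated cells (SD, n = 3). The log2 fold change was 0.00 (SE 0.19, limma adjusted p = 0.998), and the 95% confidence interval ran from 0.737-fold to 1.36-fold. It was 0.33 within the arrays whose titles name the time, -0.49 within the others and -0.14 after a further quantile normalization.

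Bbc3 encodes PUMA, a p53 target that binds all protective members. Log2 intensities were 6.52 to 6.67 on the IL2 arrays and 6.52 to 6.69 on the untreated arrays, with IL2 replicate 1 and untreated replicate 2 at exactly the same value. The difference was -0.04 (SE 0.08, limma adjusted p = 0.899), with a 95% confidence interval of -0.22 to 0.14, and it was 0.01 within the arrays whose titles do not name the time.

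Pmaip1 encodes NOXA, which mainly binds MCL1 and speeds its breakdown. On the log2 scale it was at 7.62, 7.77, 7.68 and 7.57 in IL2 replicates 1 to 4, against 7.92, 7.81 and 7.99 in untreated replicates 2 to 4. The groups were apart, but IL2 replicate 2 and untreated replicate 3 were close to each other. The log2 fold change was -0.25 (SE 0.08) with a 95% confidence interval of -0.44 to -0.05, and it did not pass the test (limma adjusted p = 0.227). Its range was -0.30 to -0.21 with 1 array left out in turn, and limma's adjusted p was then 0.227 to 0.463.

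Bak1 encodes BAK, the effector that sits in the outer mitochondrial membrane also in healthy cells. It was at a log2 intensity of 8.65, 9.02, 9.64 and 9.50 in IL2 replicates 1 to 4, against 8.34, 8.48 and 8.82 in untreated replicates 2 to 4. IL2 replicates 3 and 4 were well above the other arrays, and IL2 replicate 1 was below untreated replicate 4. Bak1 averaged 9.20 ± 0.45 with IL2 (SD, n = 4) and 8.55 ± 0.25 in untreated cells (SD, n = 3), a difference of 0.65 (SE 0.25) that did not pass the test (limma adjusted p = 0.285). In each group the arrays whose titles name the time lay above those whose titles do not, of which untreated replicate 2 is the only untreated array. With the title style as a block, Bak1 passed the test at 0.75 (SE 0.15, limma adjusted p = 0.0454). It also passed with the replicate number as a block, at 0.84 (limma adjusted p = 0.0381). IL2 replicate 1 has no untreated array of its number, so that block takes it out of the contrast. Without IL2 replicate 1 and with no block the difference was also 0.84, and it did not pass the test (limma adjusted p = 0.0882). Within the arrays whose titles name the time the difference was 0.92, and within the others it was 0.49 (limma adjusted p = 0.103 and 0.625).

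**Figure D3:**
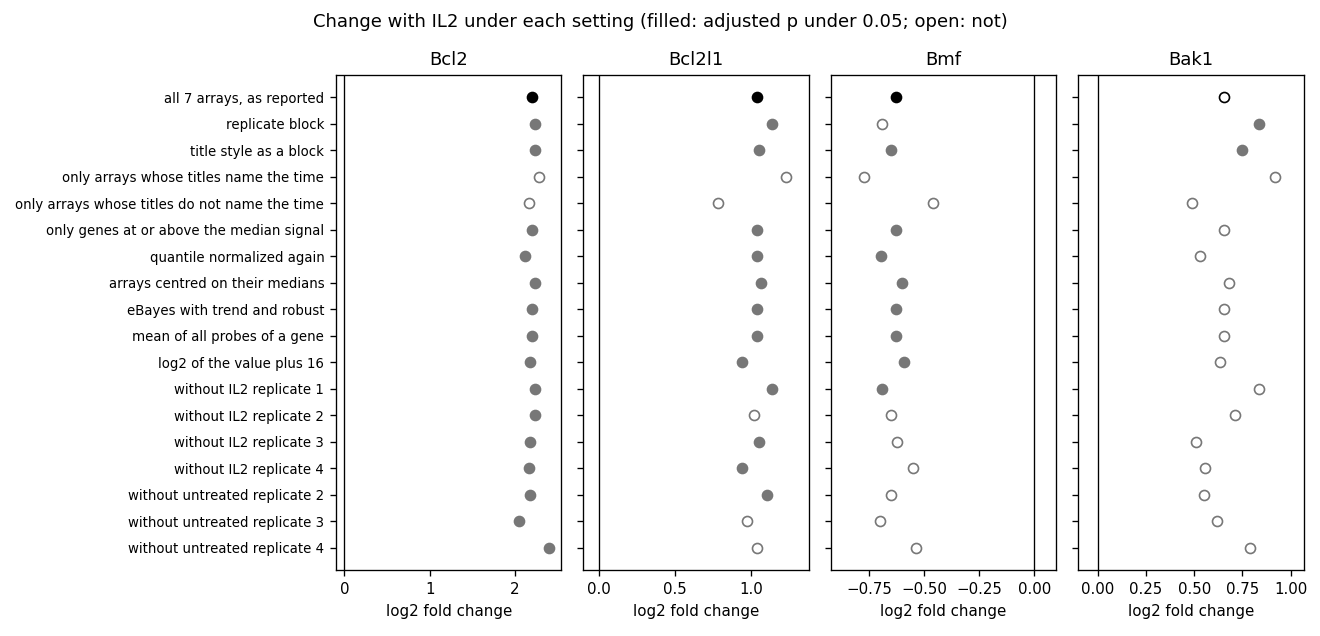
Log2 fold change, IL2 minus untreated, of Bcl2, Bcl2l1, Bmf and Bak1 under the setting used in the text (black) and each alternative (grey), filled where limma's adjusted p was under 0.05. Bcl2 stays between 2.05 and 2.40 throughout, whereas Bak1 is filled only with the replicate number or the title style as a block.

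Both sides of the family were also set side by side on each array, as the mean deviation of their members from each gene's untreated mean. The anti-apoptotic mean was 0.68, 0.79, 0.83 and 0.94 in IL2 replicates 1 to 4, against 0.06, -0.19 and 0.12 in untreated replicates 2 to 4. The pro-apoptotic mean was -0.19, -0.08, 0.07 and -0.01 on the IL2 arrays and 0.00, -0.14 and 0.14 on the untreated arrays in the same order. The anti-apoptotic mean was thus higher on all 4 IL2 arrays than on any untreated array, and the pro-apoptotic mean overlapped between the groups. Of the 4 anti-apoptotic members, Bcl2 (2.21) and Bcl2l1 (1.04) rose, while Mcl1 (0.02) and Bcl2l2 (-0.02) stayed near 0. The anti-apoptotic minus the pro-apoptotic mean was 0.86 ± 0.08 with IL2 (SD, n = 4) and 0.00 ± 0.06 in untreated cells (SD, n = 3), where 0 is the untreated mean by construction. Bcl2 carried more of this than any other member, and without it the difference was 0.40 ± 0.09 with IL2, against 0.00 ± 0.11 in untreated cells. These sums weigh each member's transcript alike, hold no Bax, and are given as a description with no test.

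**Figure D4:**
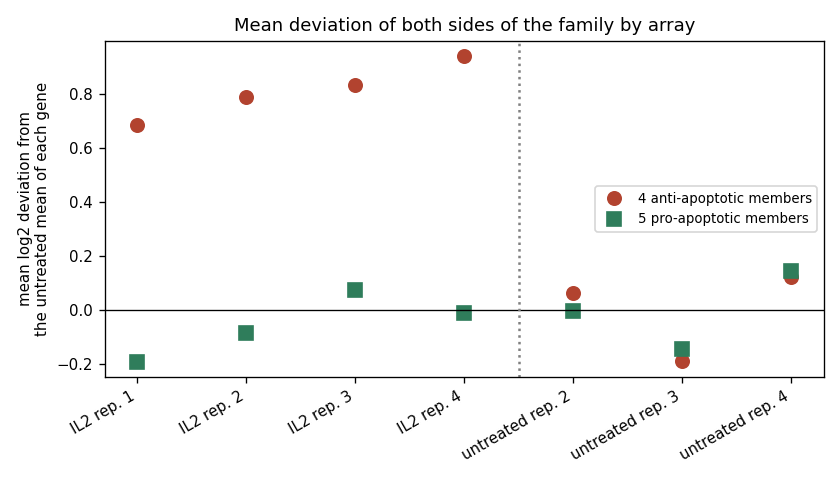
Mean log2 deviation from the untreated mean of each gene, by array, for the 4 anti-apoptotic members (circles) and the 5 pro-apoptotic members (squares), with IL2 arrays left of the dotted line. The circles lie between 0.68 and 0.94 on the IL2 arrays and between -0.19 and 0.12 on the untreated arrays, and the squares stay between -0.19 and 0.14 on all 7.

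Single pairs of members moved in different ways relative to each other. Bcl2 relative to Bcl2l11 was 2.33, 2.20, 2.09 and 2.19 in IL2 replicates 1 to 4, against -0.39, 0.11 and 0.27 in untreated replicates 2 to 4, as log2 deviations from the untreated mean of the pair. Mcl1 relative to Bcl2l11 was 0.15, 0.10, -0.14 and -0.04 in the IL2 arrays, against -0.13, 0.14 and -0.01 in the untreated arrays. The first pair separated the groups by over 1 log2 unit and the second overlapped. Bcl2 relative to Bak1, the pair of a protector and an effector, ranged from 1.20 to 1.99 on the IL2 arrays and from -0.25 to 0.14 on the untreated arrays.

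Some arrays were low for many members at once. IL2 replicate 1 held the lowest value of its group for 6 of 9 members and untreated replicate 3 for 7 of 9. The share of all genes lowest on these arrays was not computed, so whether this is particular to the members is not known. The 75th percentile of intensity was 291 and 278 on these arrays and 318 to 350 on the other 5. Without untreated replicate 3 the log2 fold change of Mcl1 was -0.12 and that of Bcl2l11 was -0.21, neither past the test. The part of this spread in the results was not tested.

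Genes whose levels followed those of the called members most closely over the 7 arrays were taken from those at or above the median signal. For Bcl2 these were Rnf43, Gbp7 and Styk1, with Pearson's r of 0.997, 0.995 and 0.994. For Bcl2l1 they were Pus7l, Hopx and Ranbp1, with r of 0.996, 0.994 and 0.992. For Bmf they were Bnip3l, Rras and Slpi, with r of 0.978, 0.975 and 0.965. The 7 points form 2 treatment groups, so r mostly describes a like difference between the groups and carries no p.

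Around these members, 56 other genes of the mitochondrial pathway were measured in 6 lists, of which 3 were higher and 2 lower with IL2, against 2.08% and 0.901% over all genes. Among 13 further BCL2 family genes, 1 rose and 1 fell. Bcl2a1a, Bcl2a1b and Bcl2a1d were listed too but had only probes shared by several symbols, and were not tested. The shared Bcl2a1 probes differed by 0.05, 0.03 and 0.01 between IL2 and untreated arrays. Bcl2l14, which encodes BCL-G, was at 7.41, 7.30, 7.73 and 7.74 in IL2 replicates 1 to 4, against 6.65, 6.57 and 7.02 in untreated replicates 2 to 4, and rose by 0.80 (SE 0.16, limma adjusted p = 0.0403). Bnip3l, whose product NIX marks mitochondria for removal by autophagy, was at 11.33, 11.17, 11.08 and 10.82 with IL2, against 11.78, 11.76 and 11.84 in untreated cells, and fell by 0.69 (SE 0.12, limma adjusted p = 0.0265). The groups lay apart for both genes. The call of Bcl2l14 was lost without any single array, at limma adjusted p-values of 0.0564 to 0.148, and Bnip3l kept its call only without IL2 replicate 1 or 4 (limma adjusted p = 0.0175 and 0.0455).

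Of 10 genes that act on the stability of the MCL1 and BIM proteins, 1 rose and 0 fell. This was Marchf5, a ubiquitin ligase of the outer mitochondrial membrane, with 8.39, 8.69, 8.88 and 8.74 in IL2 replicates 1 to 4, against 8.06, 7.98 and 8.05 in untreated replicates 2 to 4 (difference 0.64, SE 0.12, limma adjusted p = 0.0322). Its call held only without IL2 replicate 1 (limma adjusted p = 0.00948) when arrays were left out. Of 8 regulators of BH3-only genes, Myc alone was called, with a rise of 2.14 (SE 0.19, limma adjusted p = 0.00153). Trp53, the p53 gene, and Cdkn1a were listed too but had no probe with their symbol alone, and were not tested. Foxo1 and Foxo3, which drive Bcl2l11 and Bbc3 in cells deprived of growth factor, differed by -0.10 and -0.17 and did not pass the test (limma adjusted p = 0.857 and 0.791).

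Further down the pathway few genes were called. Of 9 caspase inhibitor genes 1 fell, Naip2, by 0.60 (SE 0.10, limma adjusted p = 0.0203). NAIP2 is better known as a sensor of bacterial proteins in macrophages. The part of the cell mixture in the change of Naip2 was not tested. The call of Naip2 held only without IL2 replicate 1 or untreated replicate 3 (limma adjusted p = 0.0345 and 0.0337), and the related sequences of the Naip genes may share signal. Of 10 apoptosome and caspase genes and 6 VDAC and mitochondrial partner genes, 0 were called either way in limma, and 1 and 0 of them had an unadjusted p under 0.05. The largest differences there were 0.47 for Cycs, the cytochrome c gene (limma adjusted p = 0.261), and 0.28 for Vdac2, which encodes a channel that binds BAK (limma adjusted p = 0.390).

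**Figure D5:**
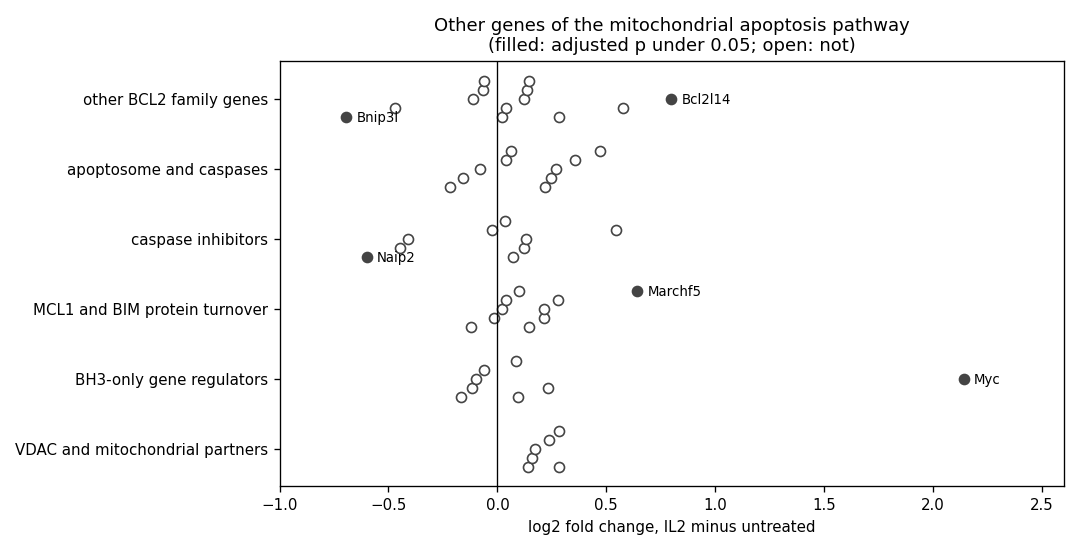
Log2 fold change, IL2 minus untreated, of 56 other genes of the mitochondrial apoptosis pathway in 6 lists, filled and named where limma's adjusted p was under 0.05. Myc stands at 2.14, and all other genes lie between -0.69 and 0.80.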

How the data were processed

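The authors deposited 1 intensity value per probe set and array on a linear scale, for which the submitters' processing notes name RMA and Affymetrix Power Tools, with versions and settings not given in the sources used here. Which arrays were normalized together is not stated, and the titles mark the arrays as reanalysed. The intensities were brought to log2 with no offset. Of 24922 probe sets, 21425 had 1 gene symbol, 1399 several and 2098 none. The brightest single-symbol probe per gene left 19752 genes, with no filter on signal. A linear model in limma 3.58.1 (R 4.3.3) had IL2 or untreated as its only factor, with eBayes (7.68 degrees of freedom) and Benjamini-Hochberg correction over all genes. Groups came from the titles and 0 columns of values were left unused. All measured members, every called gene of the lists (the largest difference where none was called) and the 3 genes most correlated with each called member were named. The members and lists were chosen with earlier results of these data known. The fit was tested on simulated data. The alternatives were 2 blocks, subsets by title style, a signal filter, 2 normalizations, another variance model, the mean of probes, an offset of 16 and leaving out each array.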

Additional observations from a re-analysis of the deposited data

How the results depend on the processing

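Bcl2 passed the test under 8 of 10 alternatives and in all 7 fits with 1 array left out. Bcl2l1 passed under 8 of 10 and in 4 of the 7, and Bmf under 7 of 10 and in 1 of the 7. Not all alternatives could shift a member. Each member had 1 probe, so the mean of probes left its values unchanged, and the signal filter and the other variance model left its fold change unchanged. The arrays whose titles do not name the time hold untreated replicate 2 as their only untreated array, so a missing call in that fit does not bear on a member. The count of anti-apoptotic members higher was 2, and 1 to 2 with 1 array left out. It became 0 within the arrays whose titles name the time, where few arrays remain and few genes were called. Over all genes 0.410% were called higher there and 0.111% lower, against 2.08% and 0.901% in the main setting. The count of pro-apoptotic members lower was 1, and 0 to 1 with 1 array left out. It became 0 with the replicate block and within the arrays whose titles name the time. The count of pro-apoptotic members higher was 0 and became 1, Bak1, with the title style as a block or the replicate block (0.84, limma adjusted p = 0.0381). With the replicate block Bmf was at -0.69 (limma adjusted p = 0.0700). Deviations of same-numbered arrays from their group means correlated at 0.46, -0.30 and 0.31 for replicates 2, 3 and 4. Untreated replicates 2 and 4 correlated best with the IL2 array of the same number, but untreated replicate 3 with IL2 replicate 1 (0.45). The numbers were therefore not taken as pairs in the main fit, and the replicate block is given as an alternative. In that block IL2 replicate 1 has no untreated partner, so each fold change equals that of the fit without this array. The 2 settings are thus not separate checks of the fold change. Of the 56 other pathway genes, 3 were higher in the main setting, 1 within the style that names the time and 1 to 2 with 1 array left out. The 2 lower became 1 with the replicate block, 0 within the style that names the time and 0 to 2 with 1 array left out.

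Members near 0 changed sign. Mcl1 was at -0.23 within the arrays whose titles do not name the time and -0.083 after quantile normalization again, with -0.12 to 0.11 when 1 array was left out. Bcl2l11 was at -0.49 and -0.14 under the same settings, with -0.21 to 0.16 when 1 array was left out. Bcl2l2 was at 0.025 after quantile normalization and 0.0067 with centred arrays, and Bbc3 at 0.0060 within the arrays that do not name the time and 0.0074 after quantile normalization. The cause was not tested. Over all genes 410 were higher and 178 lower. After quantile normalization again these were 694 and 577, a share of higher calls of 54.6% in place of 69.7%, and with 1 array left out they ranged from 134 to 517 and from 65 to 152. The 7 arrays limit the precision, and Bcl2l2 and Bbc3 were dimmer than the signal filter allows.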
